A study of Mus musculus with 12 samples.

Results

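The genes described here are 9 cytochrome P450s of families known for oxidising foreign compounds, namely Cyp1a1, Cyp1b1, Cyp2b10, Cyp2b19, Cyp2d22, Cyp2f2, Cyp2j6, Cyp2s1 and Cyp3a13, measured in mouse forestomach. They were found by gene name in the scanner files, which gave 15 of the 41174 probes other than controls and 9 of 21094 named genes. Of these probes 13 passed the filter on dim signals and each gene kept at least 1. The second probes of Cyp2b19 and Cyp2s1 were not well above background on any of the 8 arrays with scanner files, in either channel. The animals were C57BL/6J, adult and wild-type, and the whole forestomach was sampled in 3 groups of 4 samples. Control mice (house label OE27A) drank supersaccharin with 0% alcohol. The 4-week group (OE27C) drank 20% alcohol in supersaccharin, and the 40-week group (OE26F) drank 15% alcohol, with no saccharin named for it and no controls of its own age. Each array set forestomach RNA in Cy5 against Universal Mouse Reference RNA in Cy3, a commercial pool, with no dye swap. The labels do not say that replicates were separate animals, so every p-value measures the spread between these samples, which may be technical.

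Cytochrome P450s are haem enzymes that insert an oxygen atom into fats, steroids, drugs and pollutants, with electrons passed on by the reductase encoded by Por. Their transcription follows receptors that bind foreign compounds. The aryl hydrocarbon receptor (Ahr) pairs with Arnt and turns on Cyp1a1 and Cyp1b1, while the nuclear receptors CAR (Nr1i3) and PXR (Nr1i2) pair with RXR and turn on Cyp2b and Cyp3a genes. The liver holds most of these enzymes. The forestomach is lined by a keratinised squamous epithelium, in direct contact with what is eaten and drunk, and several P450s outside the liver are known from such epithelia.

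The probe sequences below are those on which the results turn: the Cyp2b10 probe, whose fall at 40 weeks was the only one among the 9 genes that was called against both other groups under every setting tried; the Cyp2f2 probe, the only one called at 4 weeks; and the 3 Cyp2d22 probes, which moved in different directions. All are 60 bases long and are written 5′ to 3′ as in the files. Positions are on mm9, as in the scanner files, which do not say whether a probe lies in an exon, intron or UTR, and no mm9 annotation was used here. The Cyp2b10 probe (transcript NM_009999) lies on the + strand at chr7:26702056-26702115 and the Cyp2f2 probe (NM_007817) on the + strand at chr7:27918570-27918629. The Cyp2d22 probes lie on the − strand, probe 1 (NM_001163472) at chr15:82201687-82201746, probe 2 (cDNA AK086555, matched by its symbol) at chr15:82205919-82205978 and probe 3 (NM_019823) at chr15:82204377-82204436.
Cyp2b10 probe 1: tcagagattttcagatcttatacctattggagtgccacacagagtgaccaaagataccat
Cyp2f2 probe 1: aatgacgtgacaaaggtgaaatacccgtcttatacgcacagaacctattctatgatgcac
Cyp2d22 probe 1: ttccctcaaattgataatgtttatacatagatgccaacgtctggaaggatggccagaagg
Cyp2d22 probe 2: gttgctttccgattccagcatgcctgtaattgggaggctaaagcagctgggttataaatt
Cyp2d22 probe 3: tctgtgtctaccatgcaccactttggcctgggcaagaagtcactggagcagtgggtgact

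The Cyp2b genes are close paralogs that lie together on chromosome 7. Among the array's probes for Cyp2b9, Cyp2b10, Cyp2b13, Cyp2b19 and Cyp2b23, no pair matched at more than 25 bases in any ungapped alignment. Cross-hybridisation of a probe to a paralog's transcript was not tested.

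The core of the element bound by the aryl hydrocarbon receptor and Arnt reads GCGTG. It was searched on both strands, as GCGTG or CACGC, in RefSeq promoter windows of build GRCm38.p6 that hold 250 bases before and 50 after each start. Windows were found for 8 of the 9 genes, Cyp2d22 being the exception. The core stood in the windows of 3 of the 8, once in those of Cyp1a1 and Cyp1b1 and 2 times in that of Cyp2b10, while 32.4% of all 32851 windows held it. The last 120 bases before the start of these 3 genes are shown with the core in capitals, on the strand of each gene: Cyp1a1 at chr9:57697493-57697612 (+ strand), Cyp1b1 at chr17:79715062-79715181 (− strand) and Cyp2b10 at chr7:25897538-25897657 (+ strand). A match of 5 letters is a description and not a binding site, and the well-known elements of Cyp1a1 lie farther upstream than this window.
Cyp1a1: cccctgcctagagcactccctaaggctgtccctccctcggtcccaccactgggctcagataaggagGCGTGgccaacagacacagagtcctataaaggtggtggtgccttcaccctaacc
Cyp1b1: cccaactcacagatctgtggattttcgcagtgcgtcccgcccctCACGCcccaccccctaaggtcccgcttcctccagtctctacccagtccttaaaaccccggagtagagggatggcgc
Cyp2b10: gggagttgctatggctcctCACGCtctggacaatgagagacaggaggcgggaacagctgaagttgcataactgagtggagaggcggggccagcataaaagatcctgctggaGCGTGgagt

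Some facts of the arrays bear on every value. The control arrays were on 1 slide scanned together and the 4-week arrays on another, so slide and group cannot be told apart. The 40-week arrays were measured here from the deposited table only, and the standard deviation of a column over all probes was 1.02 to 1.08 in that group against 1.52 to 1.73 in controls and 1.48 to 1.58 at 4 weeks. With this narrower spread, 98.6% of the 1470 genes whose mean control log2 ratio was 3 or more were lower at 40 weeks, with a median difference of −1.72, while of 12402 genes with a control ratio between −1 and 1 only 53.7% were lower. Values are therefore also given after every column was scaled to 1 spread, and after quantile normalization of the ratios over arrays. Transcripts of other organs were high on some arrays. The median log2 ratio of 10 measured glandular stomach markers was 5.22 in control replicate 4 and 3.96 in 4-week replicate 2. On the other scanned arrays it was 0.213 to 2.26. The median of 11 pancreas markers was 6.43 in control replicate 3. Their summed Cy5 was 2815110 units there, 498062 in control replicate 4 and 494059 in 4-week replicate 2. On the other scanned arrays it was 547 to 2690. The 10 squamous epithelium markers, all of them well above background on each scanned array, had median ratios of 5.97 to 6.49 in controls, 3.83 to 5.10 at 4 weeks and 3.08 to 3.50 at 40 weeks.

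Most of the 9 genes had lower deposited ratios at 40 weeks of 15% alcohol than in both other groups. Genes with high control ratios were in general mostly lower than control at 40 weeks too. After 4 weeks of 20% alcohol the 9 genes mostly did not stand apart from control. A gene is called here at a limma adjusted p under 0.05, adjusted by Benjamini-Hochberg over 20732 genes. After 4 weeks, 5 of the 9 genes had a higher ratio and 4 a lower one, with a median log2 difference of 0.08 against −0.02 over all genes. The ratio of 1 gene was called, Cyp2f2, which was lower, where 1.1% of all genes were called in either direction and 0.825% were called lower. At 40 weeks 8 of the 9 genes had lower ratios than control, and 6 of them were called lower, where 23.7% of all genes were called lower and 18.9% higher. The median difference of the 9 genes was −1.27, against −0.08 over all genes. The share called lower rose with the mean control log2 ratio. It was 86.7% of all genes at 3 or more, 49.6% at 1 to 3 and 15.6% at −1 to 1. Of the 9 genes, Cyp1a1, Cyp2f2, Cyp2j6, Cyp2s1 and Cyp3a13 had control ratios of 3 or more. Those of Cyp2b10, Cyp2b19 and Cyp2d22 lay between 1 and 3. Against the 4-week group 8 of the 9 genes were lower and 7 were called lower, where 23% of all genes were. All 40-week samples lay below all controls for 5 of the 9 genes, where 23.6% of all genes did, and below all 4-week samples for 6, where 25% did. Once all columns had 1 spread, the count called lower fell to 1, Cyp2b10, in each of these comparisons, while Cyp2f2, Cyp2s1 and Cyp3a13 were called higher against 4 weeks. The median of the 9 genes was then 0.15 against control and 0.10 against 4 weeks. After quantile normalization 1 gene, Cyp2b10, was called lower against control and 2, Cyp2b10 and Cyp2d22, against 4 weeks, while Cyp2s1 in both comparisons and Cyp3a13 against control were called higher. The shares of all genes quoted above are those of the unscaled fit. None is given for these scalings, so the counts under them have no background beside them. Both 40-week comparisons share the 40-week samples. In bulk tissue, fewer cells of a type and less RNA per cell cannot be told apart.

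**Figure D1:**
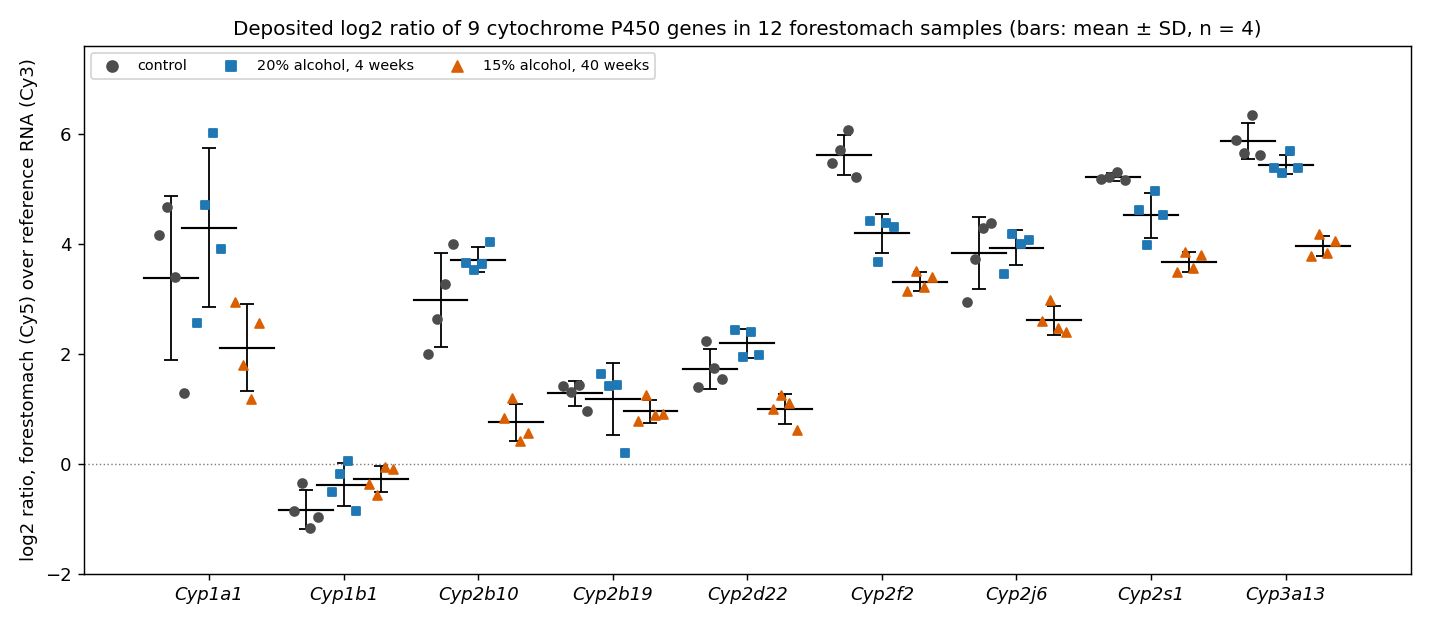
Deposited log2 ratio of forestomach RNA (Cy5) over reference RNA (Cy3) for the brightest kept probe of each of the 9 genes, with 1 point per sample (circles control, squares 4 weeks, triangles 40 weeks) and bars for the mean ± SD of 4 samples. Cyp2b10 at 40 weeks lies at 0.41 to 1.19, below all control samples at 1.99 to 3.99, and Cyp1a1 has the widest range, 1.17 to 6.02.

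Cyp2b10, the phenobarbital-inducible P450 that is the usual readout of CAR, was lower at 40 weeks. Its deposited log2 ratios were 1.99, 2.63, 3.28 and 3.99 in the 4 controls, 3.65, 3.52, 3.63 and 4.04 at 4 weeks, and 0.84, 1.19, 0.41 and 0.56 at 40 weeks. The 40-week samples lay below all 8 others, while the controls (SD 0.86) spread more widely than the 4-week group (SD 0.23). The difference in the mean log2 ratio, with its SE, was −2.22 ± 0.35 from control (limma adjusted p = 4.24e-04; 4 samples in each group) and −2.96 ± 0.35 from 4 weeks (adjusted p = 9.66e-05). The fall kept its call in all 20 alternative settings against control, from −2.55 to −1.56 with adjusted p up to 0.0125, and in all 19 against 4 weeks, from −3.11 to −2.20 with adjusted p up to 0.00437. With all columns scaled to 1 spread it was −1.58 ± 0.32 against control (adjusted p = 0.00270). At 4 weeks the ratio was 0.53 ± 0.34 above control (adjusted p = 0.454). The transcript was dim on the scanned arrays, with Cy5 54.1 to 291 units above background in controls and 115 to 168 at 4 weeks, and Cy3 24.8 to 42.7 throughout, so that the reference gave a weak denominator. Cy3 was well above background on 7 of the 8 arrays, all but control replicate 1.

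The paralogs Cyp2b9 and Cyp2b13, which encode P450s of the same subfamily, were lower at 40 weeks too. The Cyp2b13 ratios were 1.83, 2.64, 3.52 and 3.73 in controls, 3.80, 4.10, 3.42 and 4.02 at 4 weeks and 1.19, 1.62, 1.04 and 1.34 at 40 weeks. Its 40-week samples lay below all others, with a difference of −1.63 ± 0.35 from control (limma adjusted p = 0.00322). Cyp2b9 had ratios of 3.44 to 4.68 in controls, 3.89 to 5.30 at 4 weeks and 1.75 to 2.55 at 40 weeks, a difference of −1.65 ± 0.34 from control (limma adjusted p = 0.00248). After quantile normalization the Cyp2b13 difference from control was −0.96 (adjusted p = 0.0208), whereas Cyp2b9 was no longer called against control and was called against 4 weeks, at −1.31 (adjusted p = 0.00709). With columns scaled to 1 spread, neither was called against control and Cyp2b13 alone of the pair was called against 4 weeks, at −1.57 (adjusted p = 0.00179). Over the 12 samples, with each profile centred on its own mean, Cyp2b13 was the nearest of 17306 genes to Cyp2b10, at a root mean square difference of 0.33 log2 units. The next were Ear1 at 0.36 and Ear10 at 0.40, genes for ribonucleases of eosinophils. All 12 points of such a profile share the same reference RNA.

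**Figure D2:**
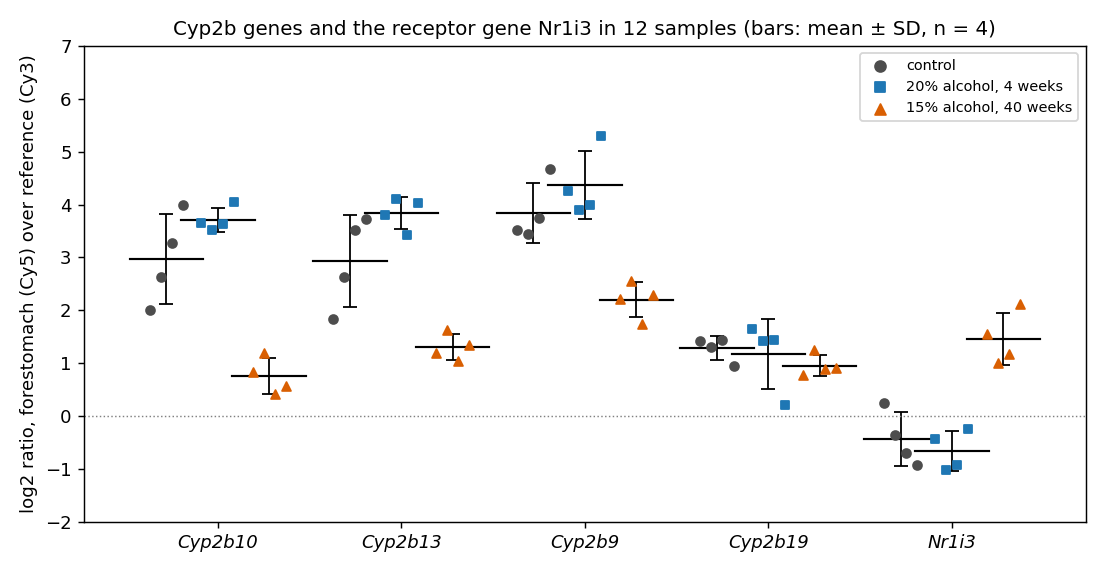
Deposited log2 ratios of 4 Cyp2b genes and of Nr1i3, the gene for the receptor CAR, with 1 point per sample and bars for the mean ± SD of 4 samples. Cyp2b10, Cyp2b13 and Cyp2b9 lie lower at 40 weeks than in all samples of the other groups, Cyp2b19 overlaps in all groups, and Nr1i3 at 1.01 to 2.12 lies higher at 40 weeks than in controls at −0.93 to 0.25.

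Nr1i3 itself, the gene for CAR, was higher at 40 weeks. Its ratios were 0.25, −0.35, −0.71 and −0.93 in controls, −0.44, −1.03, −0.93 and −0.25 at 4 weeks and 1.55, 1.01, 1.17 and 2.12 at 40 weeks. The 40-week samples lay above all others, and the difference from control was 1.90 ± 0.30 (log2 ± SE; limma adjusted p = 4.52e-04), or 2.30 (adjusted p = 1.95e-04) with columns scaled to 1 spread and 2.18 (adjusted p = 2.48e-04) after quantile normalization. Its Cy5 signal on the scanned arrays was low, at 14.9 to 70.9 units above background. The reference channel was not steady between the groups, with Cy3 of 49.1 to 127 units in controls and 72 to 332 at 4 weeks. Fitted alone, Cy3 was 1.15 ± 0.32 higher at 4 weeks (limma adjusted p = 0.0589), and the 40-week channels were not analysed. Of the 13 nuclear receptors and partners tested, 3 were called higher and 3 lower against control, near the 18.9% and 23.7% of all genes: Nr1i3, the coactivator gene Ncoa2 (0.94 ± 0.17) and the corepressor gene Ncor1 (0.53 ± 0.15) were higher, and Ppara (−2.04 ± 0.18), Rxra (−1.06 ± 0.19) and Rxrg (−1.26 ± 0.12), which encode the fatty acid receptor and a pair of RXR partners, were lower (limma adjusted p = 5.60e-06 to 0.0128). Of these 6 calls, 4 were kept in the same direction under each of the scalings, and Rxrg was called higher after quantile normalization, at 0.46 (adjusted p = 0.0354). No gene of the list was called at 4 weeks.

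Hepatocyte and adipocyte transcripts were not evenly spread over the samples that carry these values. The median ratio of the 6 measured hepatocyte markers was 0.40 to 5.10 in controls, 0.20 to 2.98 at 4 weeks and 0.06 to 0.83 at 40 weeks, with summed Cy5 of 7 markers from 208 to 20837 in controls and from 142 to 11857 at 4 weeks. That of 8 adipocyte markers reached 6.69 in controls but only 2.83 in their replicate 1, and 5.10 at 4 weeks but only 0.82 in that group's replicate 3, and was 2.29 to 3.34 at 40 weeks. None of these markers was at 0 in Cy5, with lowest values of 12.3 units for Lep and 2.90 for Ttr, but not all were detected on every array. Ttr was well above background on 3 of the 8 scanned arrays. Of the 7 hepatocyte markers, 4 were well above background in 4-week replicates 3 and 4, and 6 or 7 on the other scanned arrays. Cyp2b10 had 3.63 in 4-week replicate 3, which is low in both marker lists, and 3.65, 3.52 and 4.04 in the others of that group. Among controls, replicate 1 had the lowest median of both lists and also the lowest Cyp2b10 ratio, 1.99 against 2.63 to 3.99. The part of these cells in the 40-week difference was not tested. Without control replicates 3 and 4, chosen after the data were seen, the Cyp2b10 difference was −1.56 (limma adjusted p = 0.00150), against −2.22 with them. Control replicate 2, which was kept, had medians of 1.73 for the hepatocyte and 6.085 for the adipocyte markers, above the 40-week ranges.

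Cyp1a1, the classic target of the aryl hydrocarbon receptor, which oxidises polycyclic aromatic hydrocarbons, varied more than any other of the 9 genes. Its deposited log2 ratios were 4.17, 4.67, 3.40 and 1.28 in controls, 2.56, 4.70, 6.02 and 3.90 at 4 weeks and 2.94, 1.79, 1.17 and 2.55 at 40 weeks. Each pair of groups overlapped. In Cy5 alone the signal was 301, 485, 186 and 66.1 units above background in controls and 99.4, 683, 1029 and 106 at 4 weeks, while Cy3 stayed at 29.3 to 60.4. The spread was therefore in the forestomach channel. The control with the lowest value was replicate 4, which carried glandular stomach transcripts. The 4-week replicate 2 carried them too and had a ratio of 4.70, where its group ran from 2.56 to 6.02. The part of these transcripts in the Cyp1a1 values was not tested. At 4 weeks the mean ratio was 0.91 ± 0.77 above control (log2 ± SE, n = 4 against 4; limma adjusted p = 0.582), so a difference could not be told from the spread between samples. At 40 weeks the difference from control was −1.27 ± 0.80, which was not called (adjusted p = 0.222), and without control replicate 4 it was −1.97 (adjusted p = 0.0457). Against the 4-week group it was called, at −2.18 ± 0.80 (adjusted p = 0.0452), but lost its call under 11 of 19 alternatives. Among them were those without 4-week replicate 2, 3 or 4 or without 40-week replicate 2, 3 or 4, from −2.33 to −1.61 (adjusted p = 0.0607 to 0.128). No gene followed Cyp1a1 closely over the 12 samples: the nearest were Gm128, Tescl and 6530403H02Rik, at root mean square differences of 0.92 to 0.95 log2 units.

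Cyp1b1, the other target of this receptor, which also hydroxylates oestradiol, was the only one of the 9 genes with a higher mean ratio at 40 weeks. Its ratios were −0.85, −0.35, −1.18 and −0.96 in controls, −0.51, −0.20, 0.04 and −0.87 at 4 weeks and −0.37, −0.57, −0.06 and −0.09 at 40 weeks. The groups overlapped. The difference from control was 0.42 ± 0.23 at 4 weeks (limma adjusted p = 0.368) and 0.56 ± 0.22 at 40 weeks (adjusted p = 0.0615), neither of them called; without control replicate 2 the second was 0.72 (adjusted p = 0.0230). Its second probe gave differences of 0.01 ± 0.20 and −0.04 ± 0.44, with ratios of −2.20 to 0.37 in controls. That probe was dim, with Cy5 well above background on 6 of 8 arrays.

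Neither Ahr nor the gene for its repressor was called in these comparisons. Ahr had ratios of −0.42 to −0.10 in controls, −0.86 to −0.03 at 4 weeks and −1.22 to −0.25 at 40 weeks, with a limma adjusted p of 0.420 at 4 weeks and 0.222 at 40 weeks. Ahrr, the gene for the repressor that this receptor induces, differed from control by 0.03 ± 0.21 at 4 weeks and −0.06 ± 0.25 at 40 weeks. Of 15 genes of this pathway tested, none was called at 4 weeks, where 1.1% of all genes were called. At 40 weeks 1 was called higher and 6 lower than control, where 18.9% and 23.7% of all genes were, with a median of −0.49 against −0.08 over all genes. The higher one was Hsp90ab1, for a chaperone that holds the receptor in the cytosol, at 0.62 ± 0.11. Among the lower ones were Ugt1a6b, for a glucuronosyltransferase (−0.59 ± 0.21), the quinone reductase gene Nqo1 (−1.11 ± 0.18), the aldehyde dehydrogenase gene Aldh3a1 (−1.35 ± 0.19) and the glutathione transferase genes Gsta1 and Gsta2, of which Gsta2 was at −2.22 ± 0.26. With columns scaled to 1 spread 3 of these 7 calls were kept, among them Hsp90ab1 at 0.60 (limma adjusted p = 0.00145) and Gsta2 at −0.73 (adjusted p = 0.0319). After quantile normalization 4 were kept, with Nqo1 at −0.49 (limma adjusted p = 0.0333) besides. Over the whole list, 1 gene was called higher and 5 lower with 1 spread, and 1 higher and 6 lower after quantile normalization. Tiparp, a target of the receptor that acts back on it, was called lower against 4 weeks, at −0.57 ± 0.20 (adjusted p = 0.0411).

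Cyp2f2, the P450 of airway club cells that activates naphthalene, was lower in the ratio after alcohol. Its deposited log2 ratios were 5.46, 5.71, 6.07 and 5.21 in controls, 4.41, 3.66, 4.38 and 4.31 at 4 weeks and 3.14, 3.50, 3.21 and 3.39 at 40 weeks. No group overlapped another, in the order control, 4 weeks, 40 weeks. In the scanner ratios the 4-week group differed from control by −1.37 ± 0.23 (limma adjusted p = 0.0384; log2 difference ± SE over 4 arrays in each group). The forestomach channel did not show this fall. Cy5 was 44103, 90148, 109823 and 38226 units above background in controls and 83823, 80069, 52748 and 17148 at 4 weeks, with overlap. Fitted alone, Cy5 was 0.49 ± 0.34 higher at 4 weeks (adjusted p = 0.511). The reference channel moved instead: Cy3 was 2638, 2518, 2127 and 1864 in controls and 7782, 9083, 5212 and 3399 at 4 weeks, with no overlap, and fitted alone was 1.65 ± 0.23 higher (adjusted p = 0.00374). The labels name the same reference RNA for both groups, and a fall of Cyp2f2 in forestomach RNA was not shown by Cy5. The call was also lost on leaving out any 1 of the 8 arrays, where the difference was −1.51 to −1.20 and adjusted p 0.0599 to 0.117.

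At 40 weeks the Cyp2f2 ratio differed by −2.30 ± 0.21 from control (limma adjusted p = 7.33e-06) and by −0.88 ± 0.21 from 4 weeks (adjusted p = 0.00595). With columns scaled to 1 spread the difference from control was −0.47 (adjusted p = 0.105) and that from 4 weeks turned to 0.81 (adjusted p = 0.0109). The channels of the 40-week arrays were not analysed here. Of the 4 genes listed as club cell markers, Scgb1a1 had Cy5 of 9860 to 35798 units and Scgb3a2 of 142 to 750. The surfactant genes Sftpb and Sftpc, also on that list, had at most 54.8 and 37.5. The median ratio of the 4 genes was 1.83 to 2.51 in controls, 1.34 to 2.08 at 4 weeks and 0.99 to 1.13 at 40 weeks. Their summed Cy5 was 18676 to 36468 in controls and 10020 to 36046 at 4 weeks. The squamous markers, whose ratios are given above, had a summed Cy5 of 1334398 to 2195554 in controls and 688494 to 1373706 at 4 weeks. The part of either in the Cyp2f2 ratio was not tested. The profiles nearest to Cyp2f2 over 12 samples were those of Lipm, Prxl2b and Tmem40, at root mean square differences of 0.13, 0.14 and 0.14 log2 units.

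**Figure D3:**
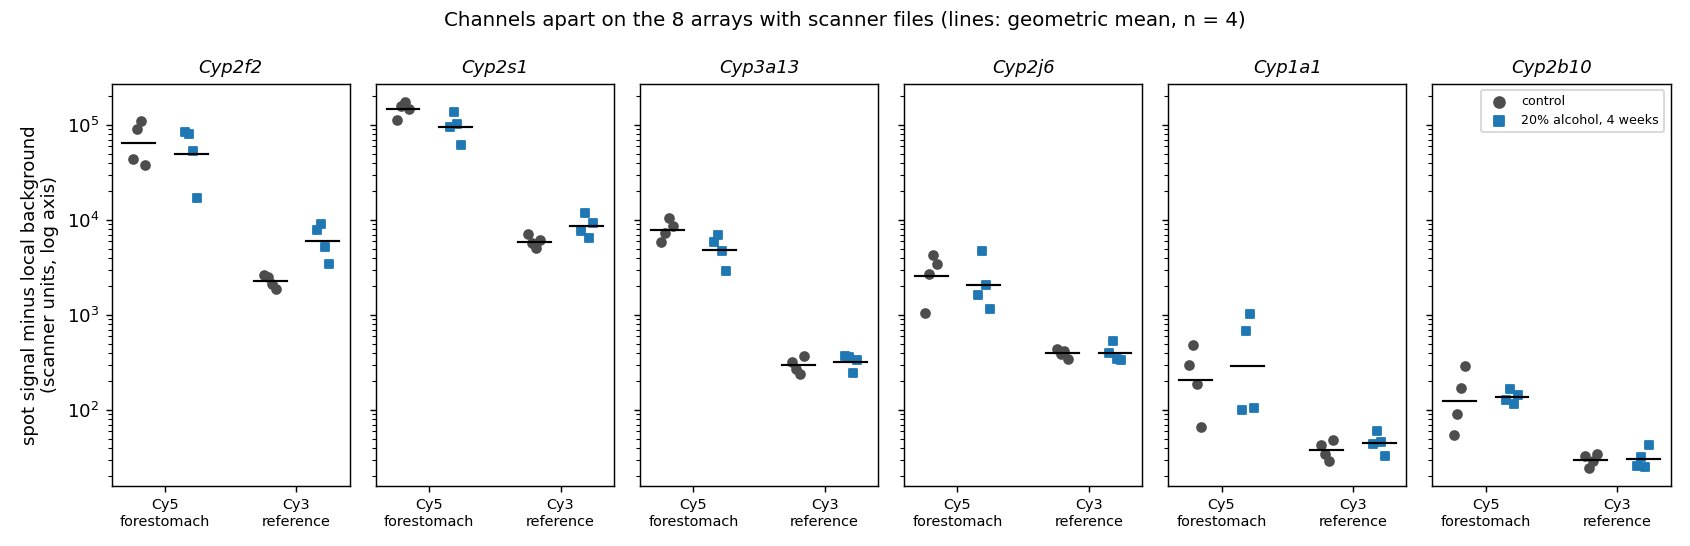
Spot signal minus local background, in scanner units on a log axis, for 6 of the genes on the 8 arrays with scanner files, forestomach (Cy5) and reference (Cy3) apart, with 1 point per array (circles control, squares 4 weeks) and a line at the geometric mean of 4. The groups overlap in Cy5 for Cyp2f2 while its Cy3 is higher on all 4-week arrays, at 3399 to 9083 against 1864 to 2638; Cyp1a1 spreads in Cy5 alone.

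Cyp2s1, a P450 known from epithelia outside the liver, was also lower in the ratio, with a brighter reference channel at 4 weeks. Its deposited ratios were 5.17, 5.21, 5.31 and 5.16 in controls, 4.61, 3.98, 4.96 and 4.53 at 4 weeks and 3.48, 3.85, 3.56 and 3.80 at 40 weeks. The groups did not overlap, and the 4 controls had an SD of 0.07. At 4 weeks the scanner ratio differed from control by −0.64 ± 0.19, which was not called (limma adjusted p = 0.139). The deposited values in the fit with all 12 samples gave −0.69 (adjusted p = 0.0448), and in that fit 2 of the 9 genes, Cyp2f2 and Cyp2s1, were called lower, where 3.64% of all genes were. Both had mean control ratios of 3 or more, and of all such genes 26.5% were called lower in that fit. Cy5 was 112395 to 174756 units in controls and 61837 to 138500 at 4 weeks. Fitted alone after quantile normalization of the channel, Cy5 was 0.22 ± 0.11 higher at 4 weeks (adjusted p = 0.378) and Cy3 0.82 ± 0.15 higher (adjusted p = 0.0128). Of the 9 genes, 2 were called higher in Cy3 alone, Cyp2f2 and Cyp2s1, where 5.9% of all genes were. In these normalized values the same pair lay wholly above control in Cy3, where 10% of all genes did. In scanner units the Cyp2s1 groups overlapped in Cy3, at 5019 to 7040 in controls and 6504 to 11791 at 4 weeks. None was called in Cy5 alone by limma, where 0.357% of all genes were, and none had an unadjusted p under 0.05. At 40 weeks the Cyp2s1 ratio differed from control by −1.54 ± 0.18 (adjusted p = 5.18e-05), but after quantile normalization it was 0.53 ± 0.17 above control (adjusted p = 0.0258).

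Cyp3a13, of the subfamily that oxidises the largest share of drugs, was lower at 40 weeks in the deposited ratios but not once the columns had 1 spread. Its ratios were 5.88, 5.64, 6.34 and 5.62 in controls, 5.38, 5.30, 5.70 and 5.38 at 4 weeks and 3.79, 4.17, 3.83 and 4.05 at 40 weeks. Controls and the 4-week group overlapped in these values, and the 40-week samples lay below both. The 40-week ratio differed by −1.91 ± 0.17 from control (log2 ± SE; limma adjusted p = 6.90e-06) and by −1.48 ± 0.17 from 4 weeks (adjusted p = 9.16e-05). After scaling to 1 spread the difference from control was 0.17 (adjusted p = 0.436), and after quantile normalization 0.35 (adjusted p = 0.0322), with the sign turned in both. Against 4 weeks it turned to 0.60 (adjusted p = 0.0124) and 0.0084 (adjusted p = 0.961). At 4 weeks it was −0.39 ± 0.17 (adjusted p = 0.271), and in Cy5 alone 0.047 ± 0.14. Cyp2f2, Cyp2s1 and Cyp3a13 were the 3 genes whose scanner ratios at 4 weeks lay wholly below control, where 6.27% of all genes did.

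Cyp2j6, of a subfamily that epoxidises arachidonic acid, was lower at 40 weeks with both of its probes. Its ratios were 2.94, 3.72, 4.28 and 4.38 in controls, 3.46, 4.18, 4.00 and 4.07 at 4 weeks and 2.59, 2.98, 2.47 and 2.40 at 40 weeks. Control replicate 1 reached into the 40-week range, and the 4-week samples did not. The difference from control was −1.23 ± 0.29 (limma adjusted p = 0.00554) with the brighter probe and −1.37 ± 0.37 (adjusted p = 0.0103) with the other. Against 4 weeks these were −1.32 ± 0.29 (adjusted p = 0.00380) and −1.78 ± 0.37 (adjusted p = 0.00241). At 4 weeks the difference from control was 0.08 ± 0.33 (adjusted p = 0.929). After scaling to 1 spread the brighter probe differed from control by 0.15 (adjusted p = 0.679) and from 4 weeks by 0.10 (adjusted p = 0.776). After quantile normalization it differed from 4 weeks by −0.33 (adjusted p = 0.282). Without control replicates 3 and 4 it differed from control by −0.72 (adjusted p = 0.0651).

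Cyp2d22, the mouse gene most often set beside human CYP2D6, gave answers that depended on the probe. With probe 1, the brightest, the ratios were 1.40, 2.23, 1.75 and 1.54 in controls, 2.43, 1.95, 2.40 and 1.98 at 4 weeks and 0.99, 1.26, 1.10 and 0.61 at 40 weeks, the last group below both others. Its differences were −0.74 ± 0.21 from control (limma adjusted p = 0.0131) and −1.20 ± 0.21 from 4 weeks (adjusted p = 9.17e-04). With columns scaled to 1 spread these were −0.18 (adjusted p = 0.558) and −0.56 (adjusted p = 0.0737), neither of them called, and after quantile normalization −0.33 (adjusted p = 0.253) and −0.78 (adjusted p = 0.0142). Without 40-week replicates 3 and 4 the difference from control was −0.60 (adjusted p = 0.108). With probe 2 the ratios were 3.32, 2.07, 0.61 and 1.52 in controls, 1.52, 0.44, 0.63 and 1.36 at 4 weeks and 2.65, 2.68, 2.56 and 2.97 at 40 weeks. All 40-week samples lay above all 4-week samples, with a difference of 1.73 ± 0.46 (limma adjusted p = 0.00976 over all kept probes). Against control it was 0.84 ± 0.46 (adjusted p = 0.160). Probe 3 had −0.71 ± 0.37 against control (adjusted p = 0.135) and −0.80 ± 0.37 against 4 weeks (adjusted p = 0.0945). Probe 2 was named through its symbol and not through a transcript of the reference table, which named the other 2. The gene was not called at 4 weeks with any probe, at 0.31, −0.70 and −0.01 for probes 1, 2 and 3.

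**Figure D4:**
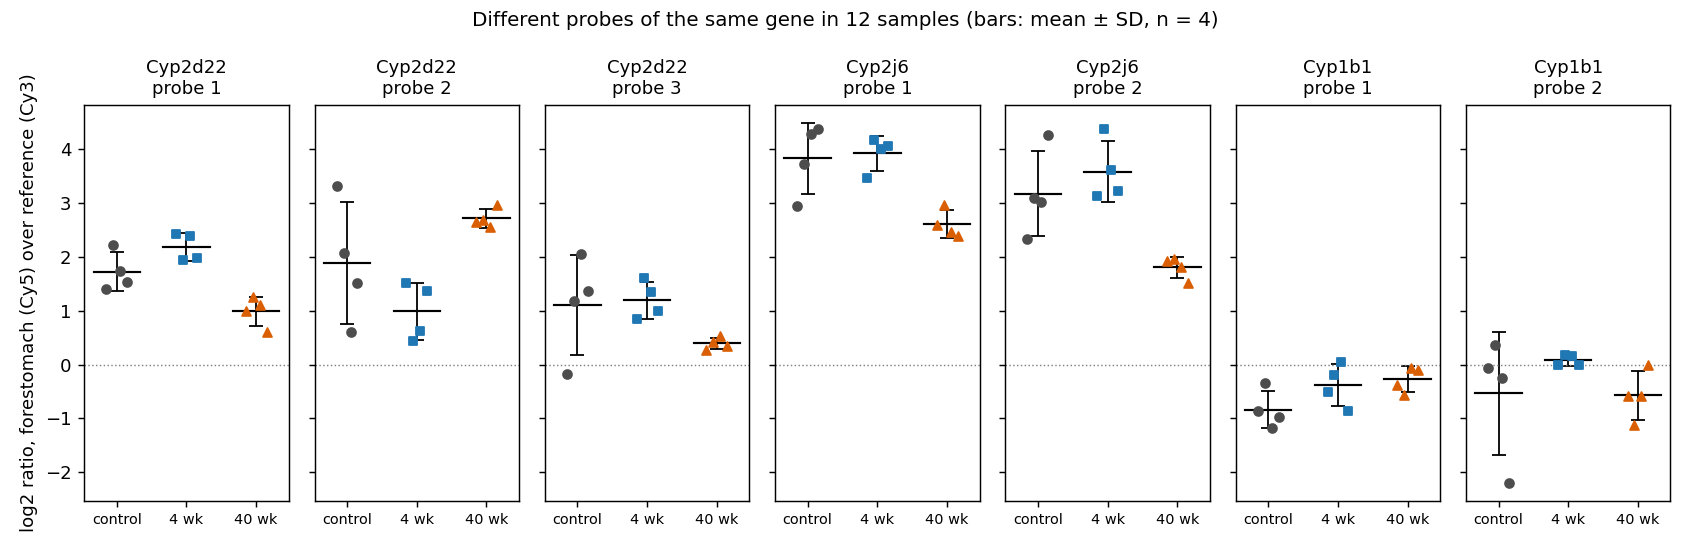
Deposited log2 ratios of the kept probes of Cyp2d22, Cyp2j6 and Cyp1b1, with 1 point per sample and bars for the mean ± SD of 4 samples. Cyp2d22 probe 2 is higher at 40 weeks (2.56 to 2.97) than at 4 weeks (0.44 to 1.52) while probes 1 and 3 are lower, and both Cyp2j6 probes are lower.

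Cyp2b19, a P450 of differentiating keratinocytes that epoxidises arachidonic acid, did not differ between groups beyond its spread. Its ratios were 1.42, 1.31, 1.44 and 0.95 in controls, 1.64, 1.41, 1.43 and 0.20 at 4 weeks and 0.77, 1.25, 0.89 and 0.91 at 40 weeks. The differences were −0.14 ± 0.23 at 4 weeks (limma adjusted p = 0.805) and −0.33 ± 0.27 at 40 weeks (adjusted p = 0.356), both from control. In 4-week replicate 4 its Cy5 was 34.3 units above background, against 152 to 156 in the others of that group, on the array with the lowest median Cy5 of the 8, at 42.4. Without that replicate the difference between 40 and 4 weeks was −0.54 (adjusted p = 0.0215), against −0.22 ± 0.27 (adjusted p = 0.549) with it.

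**Figure D5:**
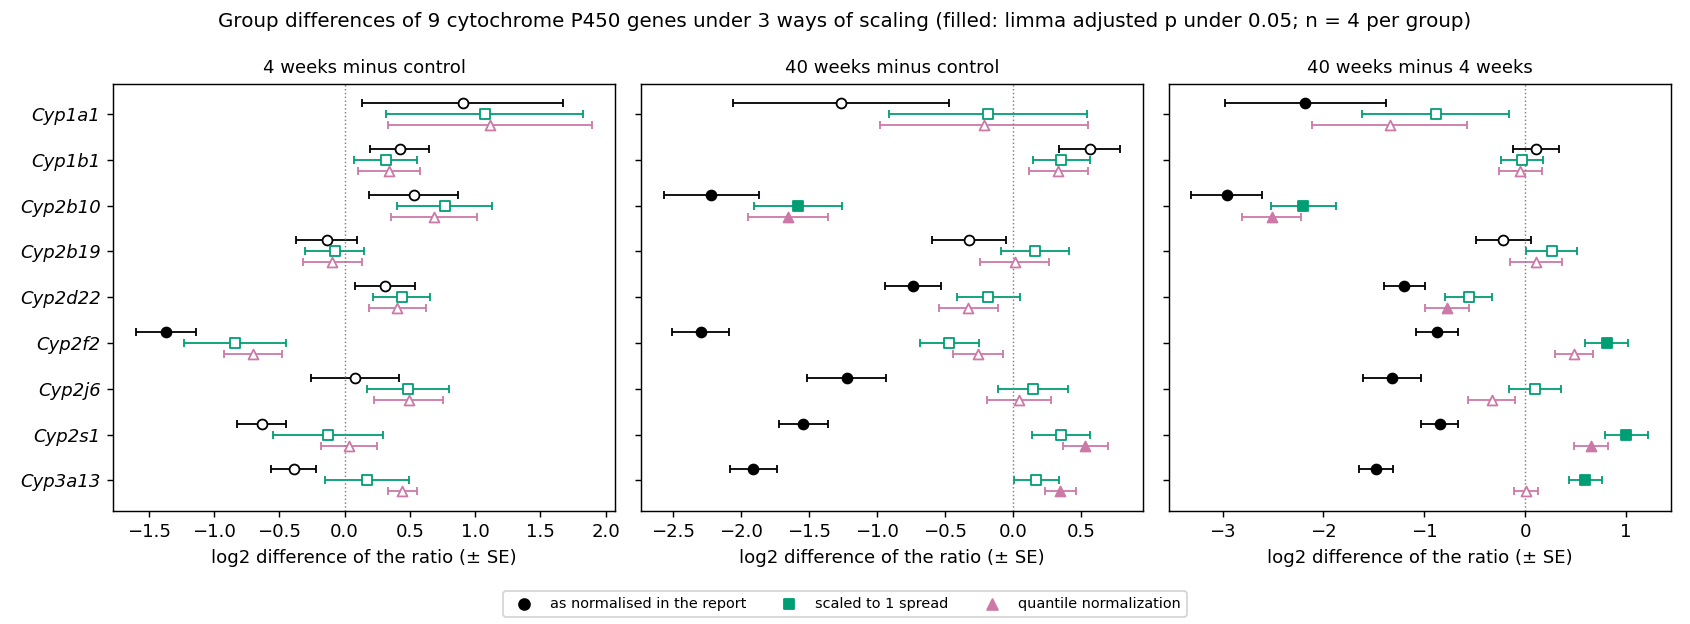
Log2 difference ± SE of each of the 9 genes in the 3 comparisons, as normalised here (circles), with every array scaled to 1 spread (squares) and after quantile normalization (triangles), filled where limma's adjusted p is under 0.05, n = 4 per group. Cyp2b10 stays lower and called at 40 weeks in all 3 scalings, while Cyp2s1 and Cyp3a13 pass from lower to higher.

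Of 41 other P450s of families 1 to 3 on the array, 29 could be tested. None was called at 4 weeks, where 1.1% of all genes were. At 40 weeks 1 was called higher and 9 lower than control, where 18.9% and 23.7% of all genes were, with a median of −1.06 against −0.08 over all genes. The higher one was Cyp2c55 (1.96 ± 0.25; limma adjusted p = 9.21e-05), whose difference was 0.76 (adjusted p = 0.0104) after quantile normalization. The largest fall was that of Cyp2r1, a vitamin D hydroxylase, at −2.74 ± 0.29 (adjusted p = 2.12e-05), or −1.47 (adjusted p = 0.00148) with columns scaled to 1 spread. Of these 10 calls, 3 were kept with columns scaled to 1 spread, those of Cyp2r1, Cyp2a4 and Cyp2c37, and 5 after quantile normalization, while Cyp2j9 turned from −1.39 to 0.70 and 0.86. Cyp2e1, which oxidises ethanol itself, differed from control at 40 weeks by −2.52 ± 0.83 (adjusted p = 0.0287), with ratios of 3.18, 6.18, 6.68 and 6.31 in controls and 2.89 to 3.21 at 40 weeks, and did not differ beyond its spread at 4 weeks (−1.01 ± 1.33; adjusted p = 0.737). Its low values, 3.18 in control replicate 1 and 2.08 in 4-week replicate 3, fell on the arrays where the adipocyte markers were low, and their part was not tested.

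Among 16 genes that supply P450s with electrons and haem, none was called at 4 weeks, where 1.1% of all genes were; 13 had a higher ratio, and 53% of all genes a lower one. At 40 weeks 4 were called higher and 4 lower than control, near the 18.9% and 23.7% of all genes. The cytochrome b5 genes Cyb5a and Cyb5b were lower, at −0.52 and −0.47, and Cyb5r3 and Alad higher, at 0.74 and 0.47. Por was at 0.07 ± 0.16 (limma adjusted p = 0.754) at 40 weeks and at 0.28 ± 0.18 (adjusted p = 0.443) at 4 weeks. Ppox, for protoporphyrinogen oxidase, was higher by 1.27 ± 0.10 (adjusted p = 3.19e-06), and Alas1, for the first enzyme of haem synthesis, by 0.32 ± 0.11 (adjusted p = 0.0399), while Fech, for the last one, was lower, at −0.67 ± 0.14 (adjusted p = 0.00238) and Uros, for another step, at −1.07 ± 0.26 (adjusted p = 0.00623). These 4 calls were kept in the same direction under both other scalings, Alas1 at 1.06 and 0.86. Of 17 conjugating and exporting genes tested, none was called at 4 weeks, where 1.1% of all genes were. At 40 weeks, where 18.9% of all genes were called higher and 23.7% lower, 3 were called higher, the export pumps Abcb1a (0.84 ± 0.19), Abcc1 (0.61 ± 0.16) and Abcg2 (0.63 ± 0.17), and 8 were called lower, among them the sulfotransferase genes Sult1a1 (−1.93 ± 0.24) and Sult2b1 (−1.78 ± 0.17) and the glutathione transferase gene Gsta4 (−1.47 ± 0.15). The pumps, Gsta4 and Sult2b1 kept their calls under both other scalings, and Sult1a1 did not.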

How the data were processed

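Forestomach RNA (Cy5) and reference RNA (Cy3) were hybridised to 2-colour Agilent mouse arrays. Per the file headers, the scanner files of the 8 control and 4-week arrays come from Feature Extraction 10.7.3.1, whereas the submitters' processing notes name 9.1 and the build mm9 (NCBI 37). The deposited scanner files give intensity values (mean signal and local background), a log10 ratio, which was not used for the main values, and other flags (0 or 1) that mark outlying, saturated and clearly detected spots. The deposited table holds log2 ratios of all 12 arrays. On the 8 arrays, its difference from log2 of background-subtracted Cy5 over Cy3 followed a smooth curve of intensity (a running median of 51 probes) within 0.05 for at least 99.9975% of probes with both channels above background. How the authors normalized the 40-week columns is not given in the sources used here.

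From the intensities, background was corrected with normexp (offset 50), arrays were normalized by within-array loess, and groups were compared with limma 3.58.1 in R 4.3.3 (lmFit, eBayes). A probe was kept if the software set Cy5 well above background on 3 or more of the 4 arrays in the control or the 4-week group. The 40-week arrays had no such flags here, so a gene detected only at 40 weeks did not enter any comparison. The brightest kept probe stood for a gene. Comparisons with the 40-week group used limma on the deposited log2 table with all 3 groups in 1 fit. Each channel was also fitted alone after quantile normalization. P-values were adjusted by Benjamini-Hochberg over 20732 genes. Of these, 17307 had a symbol, and the rest were unnamed probes that each counted as a gene. The precision is limited by 4 arrays per group.

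Genes named are the 9 members, called members of 5 lists (1 result is not reported here), the list members Ahr, Ahrr, Nqo1, Por and Cyp2e1, and the 3 nearest profiles of the 3 members with the widest range. Cyp2b9, Cyp2b13 and Nr1i3 are given by sample because they were called. The members and lists were chosen with earlier results of these data known. Probes were named through RefSeq by accession (26918 probes), symbol (5082) or synonym (817), or kept the name in the files (1248). The other 7109 had no name. The alternatives tried were other background corrections, scalings, filters, array weights, a replicate block and leaving out arrays. Scanner files of the 40-week arrays were not analysed here. The fitting code was tested on simulated data.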

Additional observations from a re-analysis of the deposited data

Results flagged for a closer look

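In 5 of 65 sets of 4 values of the 9 genes, 1 sample stood apart from the other 3 by Dixon's test at its 95% critical value, which chance reaches in about 1 of 20 sets. The Cyp2b19 ratio of 4-week replicate 4 was 0.20 in the deposited table, against 1.41 to 1.64 in the others of its group, and 0.13 in the scanner ratios, against 1.03 to 1.19. On the same array the second Cyp1b1 probe had a scanner ratio of −0.58 against −0.01 to 0.07 in the others. This array had the lowest median Cy5 of the 8. The deposited Cyp2f2 ratio of 4-week replicate 2 was 3.66 against 4.31 to 4.41 in the others of its group. That array carried glandular stomach and pancreas transcripts. The scanner ratio of Cyp3a13 in control replicate 3, the array where pancreas transcripts were highest, was 6.01 against 5.31 to 5.35. The part of these features in the values was not tested.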

How the results depend on the processing

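At 4 weeks 229 genes were called. The count was 135 with a normexp offset of 16, 554 without background correction, 480 with array weights, 669 on processed scanner signals (36.2% of them higher, main value 25.3%), 145 on the deposited values of 8 arrays, 1245 on those of 12 (39.4% higher), 74 in Cy5 alone (79.7% higher) and 1803 in Cy3 alone (67.8% higher). By limma it was 0 with median centring, scaling to 1 spread, the replicate block, quantile normalization and without 3 arrays with other organs' transcripts, where 2821, 3114, 3796, 3383 and 4576 genes had an unadjusted p under 0.05, and 0 to 52 without 1 array. The 1 called member, Cyp2f2, became 0 under each of these 5 settings, in Cy5 alone and without any 1 array, and 2 were called on 12 deposited columns and in Cy3 alone. At 40 weeks the calls against control (8822) were 5057 without 40-week replicates 3 and 4 and 7213 to 9258 without 1 array, with 6 members called, 6 to 7 without 1 array, 1 with 1 spread and 3 after quantile normalization. Against 4 weeks (8619, 7 members) the counts were 13094 with every probe by itself and 4675 without 40-week replicates 3 and 4. Without 1 array they were 7088 to 8229. The members called were 4 without those replicates, 4 with 1 spread, 3 after quantile normalization and 6 to 7 without 1 array. These member counts take in both directions. Against 4 weeks, 3 of the 4 with 1 spread and 1 of the 3 after quantile normalization were higher. Against control, 2 of the 3 after quantile normalization were higher. Same-numbered samples correlated at −0.477 to 0.322 at 4 weeks, 0.0588 to 0.201 for 40 weeks against control and −0.198 to 0.184 against 4 weeks (different numbers −0.591 to 0.700, −0.215 to 0.184 and −0.154 to 0.223), not above 0.1 in every pair, so the numbers were not taken to pair the samples; with the replicate block 0, 8697 and 8436 genes and 0, 6 and 6 members were called in the 3 comparisons. The cause of these changes was not tested.

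Signs turned as follows. At 4 weeks these were Cyp2b19 (0.044 on processed signals, 0.10 without 4-week replicate 4), Cyp2j6 (−0.072 with median centring, −0.24 to 0.48 on leaving out arrays), Cyp1a1 (−0.11 to 1.41 on leaving out arrays), Cyp3a13 (0.17 with 1 spread, 0.44 after quantile normalization, 0.047 in Cy5, 0.33 in Cy3), Cyp2f2 (0.49 in Cy5, 1.65 in Cy3), Cyp2s1 (0.22 in Cy5, 0.82 in Cy3, 0.035 after quantile normalization) and Cyp1b1 (−0.25 in Cy3). At 40 weeks against control, 1 spread and quantile normalization gave Cyp2b19 0.16 and 0.0096, Cyp2j6 0.15 and 0.044, Cyp2s1 0.35 and 0.53, and Cyp3a13 0.17 and 0.35. Against 4 weeks they gave Cyp1b1 −0.029 and −0.048, Cyp2b19 0.26 and 0.11, Cyp2f2 0.81 and 0.49, Cyp2s1 1.00 and 0.66, and Cyp3a13 0.60 and 0.0084. Cyp2j6 was at 0.10 with 1 spread, and Cyp1b1 at −0.053 to 0.25 without 1 array and −0.088 without 40-week replicates 3 and 4. Quantile normalization and leaving out control replicates 3 and 4 were added after seeing the data. Signals near background limit Cyp1a1 and Cyp2b10 in Cy3.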
